A study of Rattus norvegicus with 16 samples.

Results

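Liver RNA of septic rats kept under isoflurane was compared with liver RNA of septic rats kept under propofol, 4 libraries (1 to 4, Isoflurane-Sepsis) against 4 libraries (9 to 12, Propofol-Sepsis) of the 16 in the series. The members were taken from the labels of each library, which give both its anesthetic and its surgery. All rats were 10-week-old male Sprague-Dawley rats, with no genetic change, and each library was made from RNA pooled from livers of several rats, so the spread given below is a spread between pools. Sepsis followed cecal ligation and puncture, in which the cecum is tied and perforated so that gut bacteria leak into the abdomen, and livers were taken some hours later. The remaining libraries, Isoflurane-control (5 to 8) and Propofol-control (13 to 16), came from other rats whose abdomen was opened without ligation or puncture, and they are used here to set the same contrast beside the septic one. Isoflurane, an inhaled agent, was given in oxygen for induction and maintenance. Propofol, an intravenous agent carried in a lipid emulsion, was started after induction with ketamine and xylazine. Rats of both groups were mechanically ventilated, with pure oxygen during maintenance. Libraries of the isoflurane and propofol groups also carry different sequencing run codes. Anesthetic, induction drugs and run cannot be told apart in any comparison of this design.

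Reads on genes numbered from 16472017 to 21692360 in the Isoflurane-Sepsis libraries and from 17167929 to 32121381 in the Propofol-Sepsis libraries (two-sided exact permutation test, p = 0.743, n = 4 and 4, smallest possible p 0.0286). Markers of hepatocytes were abundant in every septic library, with all 14 tested. Library 10 of the Propofol-Sepsis group stood apart: 36 of 38 markers of brain were highest there among the 8 septic libraries, and their summed level was 632 CPM (counts scaled to the library's size, the unit of all levels given below), against 24.7 to 47.8 CPM in the other Propofol-Sepsis libraries, 15.8 to 38.3 CPM in the Isoflurane-Sepsis libraries and 18.0 to 36.4 CPM in the controls. Myelin basic protein (Mbp) was among them. Counts are therefore given with and without library 10 for all genes and for part of the gene lists. A list given without such a count may still have changed, as ribosome biogenesis did (5 called lower with library 10 and 9 without it).

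Sepsis reprograms the liver within hours. Inflammatory cytokines and stress hormones lead hepatocytes to make acute phase proteins, genes of fatty acid oxidation and drug metabolism are commonly repressed, and kinase cascades drive immediate early genes such as Fos and Nr4a1. PPAR alpha is the nuclear receptor that controls fatty acid oxidation in liver, HIF-1 raises genes of glycolysis and vessel growth when oxygen is short, CREB passes on the cyclic AMP signal of glucagon and adrenaline, and a core clock of BMAL1, PER and CRY proteins times much of liver metabolism.

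Of 10272 genes tested, 1092 were higher and 890 lower in Isoflurane-Sepsis than in Propofol-Sepsis at an adjusted p below 0.05 (edgeR's quasi-likelihood test with Benjamini-Hochberg adjustment), that is 10.6% and 8.66% of the genes, together 19.3%. Among them 263 were more than 2-fold higher and 178 more than 2-fold lower. Without library 10, 2327 of 10295 genes were called (22.6%), 1258 higher and 1069 lower. The number of calls fell to 289, 314 and 249 when Propofol-Sepsis library 9, 11 or 12 was left out, and to 1253 and 842 without Isoflurane-Sepsis library 2 or 3. The counts of the gene lists below fell with it, and the lowest ones given there came without library 9, 11 or 12. Scaling by library totals alone, in place of TMM (a scaling that assumes most genes do not differ), moved the median log2 difference of all genes from -0.01 to -0.16 and the split to 594 higher and 2177 lower. The genes named below that were called in all 16 alternatives other than the stricter threshold are said to have kept their call throughout.

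The Isoflurane-Sepsis libraries differed more from each other than the Propofol-Sepsis libraries did. The SD of log2 CPM had a median of 0.235 over genes in the isoflurane group and of 0.150 in the propofol group (0.106 without library 10), and it was larger in the isoflurane group for 72.1% of genes. Libraries 2 and 3 had the highest mean over the hypoxia list and over the MAP kinase feedback and AP-1 list described below, though not for each gene. The share of reads outside genes was 24.25 ± 0.94% in Isoflurane-Sepsis and 22.55 ± 0.48% in Propofol-Sepsis (SD, n = 4 each, two-sided exact permutation test, p = 0.0571), with the highest share, 25.39%, in library 3, and its part in the results was not tested.

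The same contrast in control liver gave 2225 genes higher (21.6%) and 2243 lower (21.7%) under isoflurane of 10314 tested. Of the 1982 genes called in septic liver, 1272 were called in the same direction in control liver (64.2% of the septic calls and 28.5% of the control calls), 39 in the opposite direction, 644 were not called, and 27 had too few counts to be tested there. Whether a difference between the anesthetics in septic liver itself differed from that in control liver was asked with an interaction term fitted to the 16 libraries together, and 289 of 10621 genes were called (2.72%), of which 133 were among the septic calls. That number ran from 54 without library 12 to 1615 without library 1, and it stayed within 1.5 times of 289 only without library 2, 4, 10 or 16. The control and septic comparisons share no library.

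**Figure D1:**
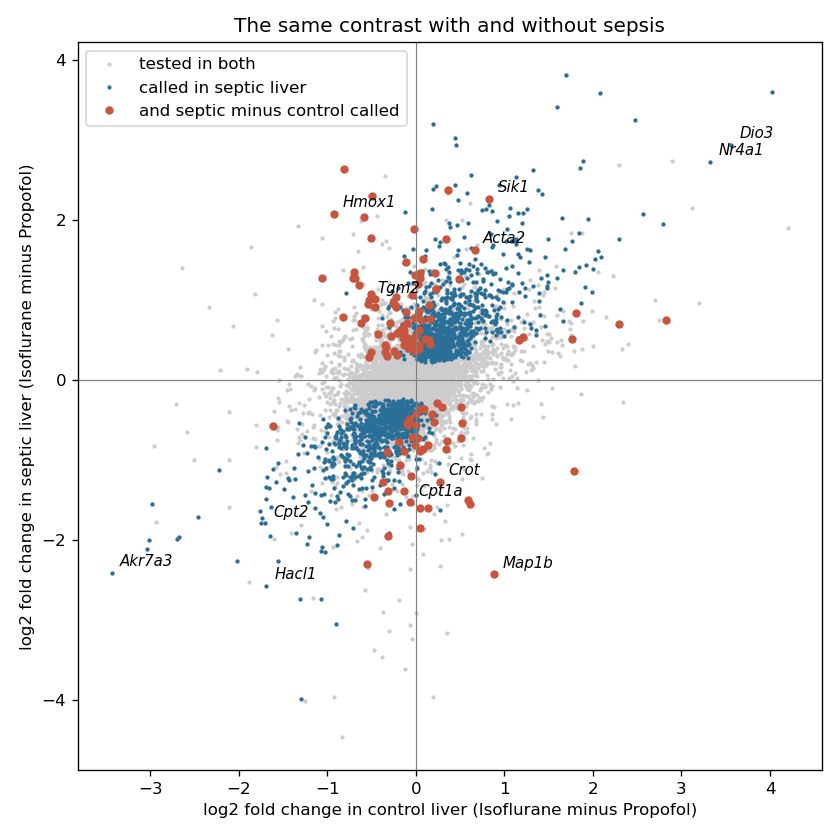
Each point is a gene tested in both comparisons, with the log2 fold change of isoflurane against propofol in control liver on the horizontal axis and in septic liver on the vertical axis. Blue points were called in septic liver and lie mostly in the upper right and lower left of the plot. Red points are septic calls whose difference also differed between septic and control liver, such as Hmox1 (2.07 septic, -0.92 control), Cpt1a (-1.53 and -0.06) and Map1b (-2.43 and 0.88).

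The largest rises included genes of hormone, signalling and detoxification pathways. Those named were picked among called genes whose groups did not overlap, so the lack of overlap follows from the choice. Nr4a1, an immediate early nuclear receptor that raises genes of glucose production, was at 72.8, 70.4, 95 and 168 CPM in Isoflurane-Sepsis libraries 1 to 4 and at 9.85, 21.7, 21.6 and 8.61 CPM in Propofol-Sepsis libraries 9 to 12. The log2 difference was 2.72 ± 0.40 (SE, adjusted p = 0.00855). Dio3, the deiodinase that inactivates thyroid hormone, was at 20.5, 44.1, 87.9 and 129 CPM against 8.52, 14.3, 7.21 and 6.88 CPM, a log2 difference of 2.94 ± 0.54 (adjusted p = 0.0137). Libraries 3 and 4 held the most Dio3, and library 1 the least of its group. Sat1, the enzyme that marks spermidine and spermine for breakdown, was at 329, 755, 1593 and 769 CPM under isoflurane. Under propofol it was at 115, 226, 105 and 106 CPM, with library 10 above the others of its group, and the log2 difference was 2.64 (adjusted p = 0.0129). Dnase2b, an acid endonuclease, was at 15.4, 24.3, 39.6 and 25.1 CPM against 1.94, 3.98, 2.09 and 1.85 CPM (log2 difference 3.41, adjusted p = 0.00220) and kept its call throughout. The glutathione transferase Gstm3 was higher by 3.59 on the log2 scale (adjusted p = 0.0136), but its Isoflurane-Sepsis libraries ran from 4.93 CPM in library 1 to 46.5 CPM in library 3, and Gstm genes are close copies between which reads can be divided. Neurl3, a ubiquitin ligase, Kcnk5, a potassium channel, and RGD1564664 were higher by 2.73, 2.43 and 2.54.

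The largest falls included enzymes of peroxisomes and aldehyde metabolism. They too were picked among called genes whose groups did not overlap. Hacl1, an enzyme of the alpha-oxidation of phytanic acid in peroxisomes, was at 23, 22.4, 27.9 and 11.8 CPM in the Isoflurane-Sepsis libraries and at 126, 98.8, 117 and 167 CPM in the Propofol-Sepsis libraries. The log2 difference was -2.58 ± 0.26 (adjusted p = 0.00220), and the control difference was -1.70 (adjusted p = 8.75e-05). Akr7a3, an aldehyde reductase that detoxifies aflatoxin, was at 4.49, 6.92, 6.24 and 4.19 CPM against 35.4, 25.8, 30.7 and 24.2 CPM, a log2 difference of -2.41 ± 0.19 (adjusted p = 0.00141). Both of these genes kept their call throughout. Aox3, an aldehyde oxidase, fell by 2.12 on the log2 scale (adjusted p = 0.0163), Slc4a8, a bicarbonate transporter, by 2.74, Pald1 by 2.30, Sdr42e1 by 2.16, RGD1566380 by 2.14 and Csmd1 by 1.96. In control liver all of these genes were called lower too. For Pald1 the control difference was smaller (-0.56), and the interaction was called (-1.74, adjusted p = 0.0353). The control differences of Akr7a3 (-3.44), Aox3 (-3.04) and Csmd1 (-2.68) were larger than the septic ones, without a called interaction. Map1b, a microtubule protein abundant in neurons, was at 10.4, 21.7, 15 and 5.20 CPM against 53.5, 130, 45.1 and 53.1 CPM, with library 10 far above the rest, and it fell by 2.43 with library 10 and by 1.96 without it (adjusted p = 0.0157).

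Genes of fatty acid oxidation and ketone body formation were lower in Isoflurane-Sepsis. Of 41 tested, 22 were called lower and 1 higher, with a median log2 difference of -0.55, beside -0.01 for all genes. Without library 10 the counts were 21 and 2, and leaving out any 1 of the 8 libraries gave between 12 and 24 called lower, with 12, 12 and 13 without library 9, 11 or 12. Cpt2, the inner membrane enzyme that hands long-chain acyl groups to mitochondrial coenzyme A, had the smallest adjusted p of the list. It was at 14.1, 12.8, 15.8 and 16.2 CPM in Isoflurane-Sepsis and at 52, 46.6, 51.4 and 54.4 CPM in Propofol-Sepsis, a log2 difference of -1.79 ± 0.10 (adjusted p = 0.000196). All 4 isoflurane libraries lay within a narrow range far below the propofol libraries. Ech1, which moves double bonds of unsaturated acyl chains, was at 20, 23.5, 21.9 and 13.7 CPM against 88.8, 70.1, 70.1 and 70.4 CPM (log2 difference -1.92, adjusted p = 0.00141). Eci1, another isomerase of unsaturated fatty acids, was at 17.3, 20.6, 21.7 and 16 CPM against 58.7, 59.9, 57.9 and 50.2 CPM (log2 difference -1.58, adjusted p = 0.00113). Cpt1a, the rate-limiting gate for entry of long-chain fatty acids into mitochondria, was at 38, 39.8, 53 and 54.8 CPM against 115, 123, 162 and 135 CPM (log2 difference -1.53, adjusted p = 0.00220). None of these enzymes overlapped between the groups, and all kept their call throughout. They were picked among the called members, so the lack of overlap does not describe the list.

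The fall reached several steps of the pathway but not each enzyme. Uptake and activation were lower for Acsl1 (-0.81) and for the carnitine carrier Slc25a20 (-0.96). In the mitochondrial spiral Acadvl (-0.39), Acadl (-0.35), Hadha (-0.58) and Hadhb (-0.79), the long-chain enzymes, were called lower. The medium- and short-chain enzymes Acadm (-0.09, adjusted p = 0.748), Acads (-0.05, adjusted p = 0.816) and Hadh (-0.20, adjusted p = 0.307) were not called. In peroxisomes the transporter Abcd3 was lower by 0.68. Cyp4a1 and Cyp4a2, fatty acid omega-hydroxylases, differed by -1.47 and -1.40. Ppara itself (0.65, adjusted p = 0.437), its coactivator Ppargc1a (1.36, adjusted p = 0.088), Fgf21 (-0.55, adjusted p = 0.353) and Pdk4 (1.40, adjusted p = 0.355), which are under control of the same receptor or of fasting signals, were not called. Acadsb, a branched-chain acyl dehydrogenase, was the only member called higher (0.45, adjusted p = 0.0261).

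In control liver 24 of 41 members were called lower under isoflurane and 4 higher, with a median of -0.45. Cpt2 (-1.71) and Eci1 (-1.64) had nearly the same difference in both. Cpt1a departed from this pattern. Its log2 difference in control liver was -0.06 (adjusted p = 0.834), and the interaction was -1.46 ± 0.30 (adjusted p = 0.0268), the only call among the 41 genes. Crot, the peroxisomal carnitine octanoyltransferase and not a member of the list, behaved alike, at 6.0, 4.72, 7.81 and 4.90 CPM in Isoflurane-Sepsis and 16.6, 15.5, 12.8 and 12.3 CPM in Propofol-Sepsis. Its log2 difference was -1.28 in septic and 0.28 in control liver (interaction -1.54, adjusted p = 0.00545).

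Immediate early genes and feedback inhibitors of the MAP kinases were higher in Isoflurane-Sepsis. All 35 members tested had a log2 difference above 0, with a median of 1.07, 21 were called higher and none lower (20 and 0 without library 10). The number called higher ran from 5 to 26 when single libraries were left out, with 5, 6 and 5 without library 9, 11 or 12, and was 24 with DESeq2. Among transcription factors of the AP-1 family, Fos was at 28.8, 35.3, 29.9 and 12.6 CPM in Isoflurane-Sepsis and 9.19, 7.20, 9.93 and 5.48 CPM in Propofol-Sepsis (log2 difference 1.75, adjusted p = 0.0129), with library 4 lowest of its group yet above library 11, the highest of the other. Fosl2 (1.69), Jund (1.83) and Junb (1.06) were called too, Junb not without library 10, while Jun was at 1.53 with an adjusted p of 0.081. The stress factor Atf3 was higher by 3.02 (adjusted p = 0.0407) but was not called without library 10. Of the 3 related nuclear receptors Nr4a1, Nr4a2 and Nr4a3, the last 2 differed by 2.42 and 2.22.

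Phosphatases and adaptors that switch MAP kinases off were raised alongside. Dusp6, a phosphatase of ERK, was at 218, 179, 227 and 221 CPM against 96.5, 115, 76 and 85.1 CPM, a log2 difference of 1.18 ± 0.14 (adjusted p = 0.00433) that was close to that in control liver (1.08). Dusp8 and Dusp10, phosphatases of JNK and p38, differed by 1.99 and 3.20. Dusp10 was very uneven, at 3.41, 17.2, 44 and 4.25 CPM in libraries 1 to 4 against 1.55, 2.30, 2.40 and 1.31 CPM, and in control liver its difference was 0.19 (adjusted p = 0.479). Spry2 (0.89), Spry4 (0.80) and Spred2 (0.75), inhibitors of signalling by growth factor receptors, were called higher. Ier3, a survival factor induced by NF-kB and ERK, was at 90.8, 117, 126 and 115 CPM against 55.5, 55.2, 61.1 and 59.6 CPM (log2 difference 0.96, adjusted p = 0.00364), and the growth arrest gene Gadd45g differed by 1.07 (adjusted p = 0.00545). Ier3, Gadd45g, Dusp6, Fos and Nr4a1 kept their call throughout. In control liver 21 of 32 members were called higher and 2 lower with a median of 0.49, and Myc was at -1.06 there against 0.95 (adjusted p = 0.0504) in septic liver, the single member with a called interaction (adjusted p = 0.0473).

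**Figure D2:**
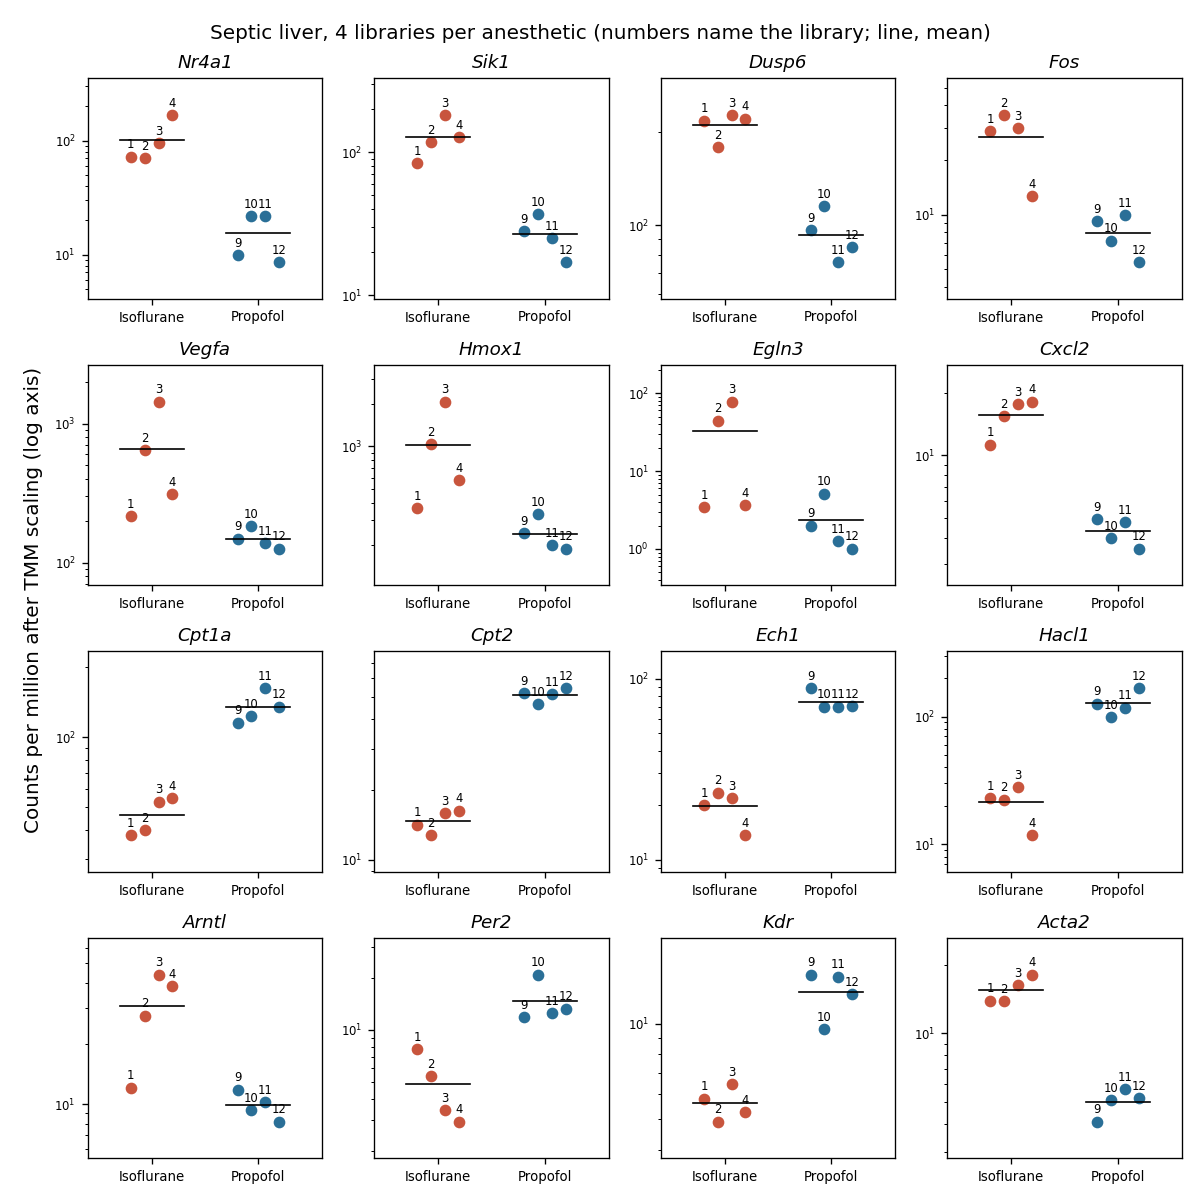
CPM after TMM scaling (vertical log axis) of 16 genes in each septic library, with red points for Isoflurane-Sepsis libraries 1 to 4, blue points for Propofol-Sepsis libraries 9 to 12 and a line at each group mean. The groups do not overlap in 15 of the panels, but all 16 genes were chosen among those called in septic liver, so this does not describe genes at large. In Egln3 library 10 lies above libraries 1 and 4, and in Vegfa, Hmox1 and Egln3 libraries 2 and 3 stand above the rest of their own group.

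Targets of cyclic AMP and CREB overlapped in part with these genes. Of 23 tested, 8 were called higher and 1 lower with a median of 0.75 (10 and 2 without library 10, and 4 to 11 called higher with single libraries left out, 4 in each case without library 9, 11 or 12). Sik1, a kinase that restrains CREB coactivators, was at 84.2, 118, 182 and 128 CPM in Isoflurane-Sepsis and 28.2, 36.9, 25.2 and 17.1 CPM in Propofol-Sepsis. Each isoflurane library was well above the highest propofol library, with a log2 difference of 2.26 ± 0.28 (adjusted p = 0.00507), and the difference was larger than in control liver (interaction 1.44, adjusted p = 0.0486). Crem, which encodes activators and the repressor ICER of the same pathway, was at 241, 309, 338 and 360 CPM against 146, 184, 118 and 116 CPM (log2 difference 1.14, adjusted p = 0.00991), beside 1.23 in control liver. The insulin receptor substrate Irs2, at 141, 191, 295 and 289 CPM against 89.4, 136, 90.4 and 65 CPM, was higher by 1.27 (adjusted p = 0.0217). The gluconeogenic enzymes Pck1 (1.10, adjusted p = 0.0737) and G6pc (1.35, adjusted p = 0.126) were not called in septic liver, where their values in control liver were 1.44 and 2.06, both called. Creb3l3, a liver factor that raises genes of fasting metabolism, was the member called lower (-0.89, adjusted p = 0.0160).

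Genes that respond to low oxygen were higher as well, unevenly so. Of 35 tested, 13 were called higher and 1 lower with a median of 0.95, beside 11 and 3 of 32 with a median of 0.18 in control liver. Without library 10 the septic counts were 18 and 0, and it was 4 and 6 called higher without Isoflurane-Sepsis library 2 or 3, and 1, 0 and 0 without library 9, 11 or 12. Vegfa, the main growth factor of endothelial cells, was at 215, 647, 1437 and 310 CPM in libraries 1 to 4 and at 149, 183, 139 and 127 CPM in libraries 9 to 12, a log2 difference of 2.13 ± 0.53 (adjusted p = 0.0282). Egln3, the prolyl hydroxylase that HIF-1 induces to limit itself, was at 3.41, 44.2, 77.8 and 3.66 CPM against 1.99, 5.13, 1.25 and 1.01 CPM (log2 difference 3.80 ± 1.08, adjusted p = 0.0400), and the groups overlapped. Libraries 2 and 3 held most of each of these transcripts, while libraries 1 and 4 lay nearer to the propofol levels. The mean over the whole list showed the same order, 1.00 and 1.65 on the log2 scale above the propofol mean in libraries 2 and 3, 0.20 and 0.28 in libraries 1 and 4, and 0.38 in library 10.

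**Figure D3:**
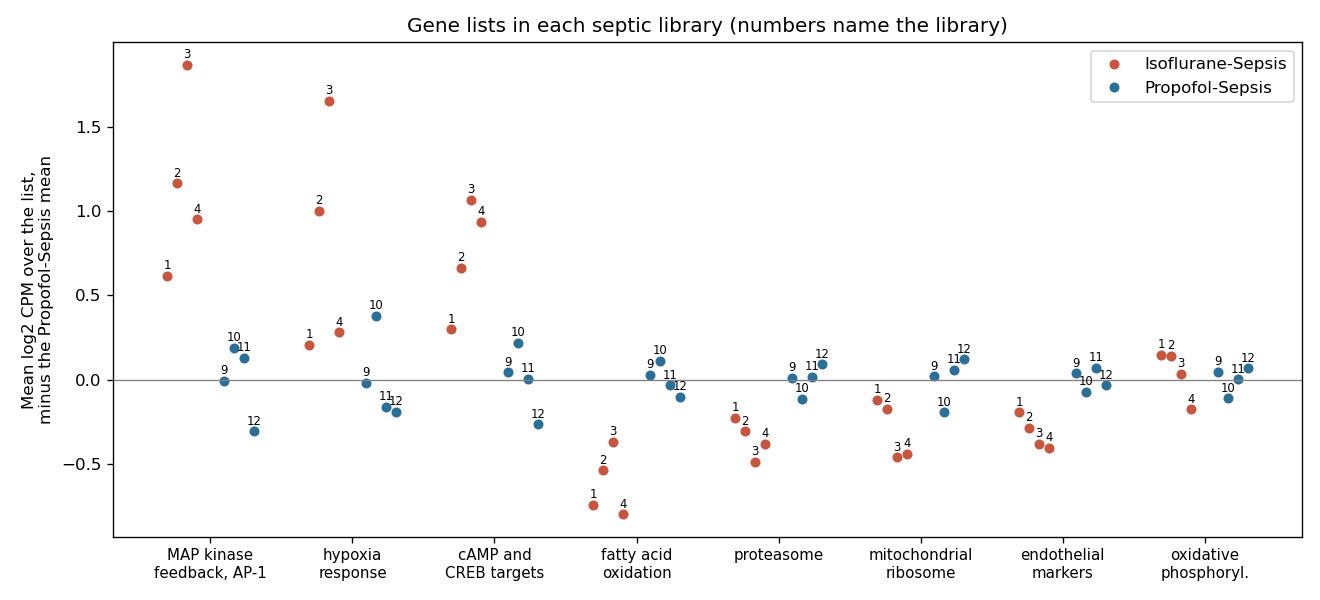
Mean log2 CPM over 8 gene lists in each septic library, as the difference from the mean of the Propofol-Sepsis libraries, with red points for Isoflurane-Sepsis and blue points for Propofol-Sepsis. Libraries 2 and 3 stand highest for MAP kinase feedback (1.16 and 1.87) and for hypoxia (1.00 and 1.65), whereas fatty acid oxidation is lowest in libraries 1 and 4 (-0.74 and -0.80).

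Genes of glucose uptake and glycolysis were called in part. The glucose transporter Slc2a1, at 20.1, 75.3, 169 and 26.1 CPM against 15.1, 25.6, 13.3 and 12.7 CPM, differed by 2.13 (adjusted p = 0.0464), hexokinase Hk2 by 1.39 (adjusted p = 0.0294) and the mitophagy receptor Bnip3 by 1.40 (adjusted p = 0.0442). The glycolytic enzymes Pgk1 (0.17), Eno1 (0.04) and Ldha (-0.02), classic HIF-1 targets, were not called, nor was Pfkfb3 (-0.06). Ankrd37, at 8.10, 11.1, 14.7 and 6.91 CPM against 5.42, 4.61, 3.71 and 3.51 CPM, was higher by 1.25 (adjusted p = 0.0174). Among 35 genes of glycolysis, gluconeogenesis and glycogen 4 were higher and 5 lower, a share of 25.7% beside 19.3% of all genes. Pyruvate kinase (Pklr), at 132, 156, 99.4 and 195 CPM against 363, 278, 385 and 341 CPM, was lower by 1.23 on the log2 scale (adjusted p = 0.0108) and kept its call throughout.

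Among the proteins followed in these livers were HIF-1 alpha, heme oxygenase 1, inducible nitric oxide synthase and BCL2. Of the genes for these proteins, Hif1a, Hmox1 and Nos2 could be tested. Hif1a was at 75.2, 78.7, 89.9 and 123 CPM in Isoflurane-Sepsis and 72.5, 66.8, 69.3 and 63.1 CPM in Propofol-Sepsis. Library 4 was highest, the groups did not overlap, and the log2 difference of 0.43 did not pass the test (adjusted p = 0.0702). Hmox1, heme oxygenase 1, was at 367, 1041, 2079 and 579 CPM against 244, 333, 201 and 189 CPM (log2 difference 2.07 ± 0.49, adjusted p = 0.0245). In control liver it was at 261 ± 79.8 CPM under isoflurane and 494 ± 272 CPM under propofol (SD, n = 4 each), a difference of the other sign that was not called (-0.92, adjusted p = 0.0667), and the interaction was 3.00 ± 0.68 (adjusted p = 0.0361). Nos2, inducible nitric oxide synthase, was at 3.32, 9.0, 13.9 and 6.32 CPM against 3.10, 2.26, 2.25 and 1.88 CPM (log2 difference 1.79, adjusted p = 0.0217) and had too few counts in control liver. Bcl2 had too few counts, and among the 14 members of its family that were tested Bcl2l1 (1.45), Mcl1 (0.78) and Bax were called higher.

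Promoter sequences are shown for genes of 3 of these groups whose upstream stretch holds the core letters of a response element. They are RefSeq sequences (build GRCr8, not the build of the deposited counts), 5′ to 3′ on the strand of the gene. A promoter was found for 8350 of the 10272 genes tested. Each line gives 110 bases out of the 250 before the start, with the letters in capitals marking ACGTG, the core of the hypoxia element, on either strand in Ankrd37, Bnip3 and Bhlhe40, TGACGT, the core of the cyclic AMP element, read from the other strand as ACGTCA in Sik1, and TAGGTCA, bound by ROR and REV-ERB, in Arntl (Bmal1 in RefSeq). Where ACGTG lies on both strands at once the capitals read CACGTG, which is also the E-box of the clock.
Ankrd37, chr16:53001397-53001506, plus strand: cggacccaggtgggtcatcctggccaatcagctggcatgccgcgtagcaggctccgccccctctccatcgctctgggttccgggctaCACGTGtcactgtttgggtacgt
Bnip3, chr1:203155004-203155113, minus strand: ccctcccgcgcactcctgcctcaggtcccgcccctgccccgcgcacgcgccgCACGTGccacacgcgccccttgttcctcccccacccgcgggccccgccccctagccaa
Bhlhe40, chr4:143174273-143174382, plus strand: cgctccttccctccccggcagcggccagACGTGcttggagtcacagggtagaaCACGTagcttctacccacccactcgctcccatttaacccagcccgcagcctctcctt
Sik1, chr20:9958770-9958879, minus strand: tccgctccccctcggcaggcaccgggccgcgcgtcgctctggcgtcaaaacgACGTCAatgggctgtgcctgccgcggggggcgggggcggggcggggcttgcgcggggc
Arntl, chr1:176766218-176766327, plus strand: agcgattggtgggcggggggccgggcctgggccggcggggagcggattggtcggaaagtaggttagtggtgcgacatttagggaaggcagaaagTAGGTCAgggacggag
Within the 250 bases, ACGTG was present for 5 of the 10 hypoxia genes called higher that had a promoter and for 22.8% of all genes tested with one. TGACGT was present for 1 of 6 cyclic AMP targets called higher, Sik1, and for 10.9% of the genes tested, and TAGGTCA for 1 of 5 clock genes called higher and 1.72% of the genes tested. These matches describe the letters of the window and were not tested as sites.

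Genes of the circadian clock differed in both directions. Of 22 genes tested, 5 were called higher and 6 lower (4 and 5 without library 10, 9 and 7 without library 1, 3 and 4 without library 2, 3 and 2 without library 3, and 0 higher and 3, 2 and 1 lower without library 9, 11 or 12), around a list median of 0.04 (-0.11 with library totals). The activators Arntl, which encodes BMAL1, and its partner Npas2 were higher. Arntl was at 12.1, 27.5, 44 and 38.7 CPM in Isoflurane-Sepsis and 11.8, 9.36, 10.2 and 8.19 CPM in Propofol-Sepsis (log2 difference 1.63, adjusted p = 0.0189), with library 1 just above library 9. Npas2 differed by 2.32 and lost its call without library 10. The repressors Nfil3 (1.57) and Bhlhe40 (1.08, adjusted p = 0.0204) and the receptor Rora (1.94, groups overlapping) were also higher.

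Several genes that BMAL1 drives through E-boxes were lower. Dbp, an output factor that sets daily rhythms of drug metabolism, was at 14.3, 7.05, 3.14 and 1.36 CPM against 23, 30.3, 26.6 and 27.9 CPM, a log2 difference of -2.05 ± 0.54 (adjusted p = 0.0326). Per2, a core repressor, was at 7.71, 5.41, 3.45 and 2.95 CPM against 11.9, 20.8, 12.4 and 13.2 CPM, with library 10 highest (log2 difference -1.57, adjusted p = 0.0166, and -1.35 without library 10). Usp2 (-2.06), Cry2 (-1.11) and Per3 (-1.05, not called without library 10) were lower too, while Per1 (0.10), Clock (0.03), Nr1d1 (-0.09) and Nr1d2 (-0.05) were not called. Within the isoflurane group libraries 3 and 4 held the most Arntl and the least Dbp and Per2, and library 1 the reverse. In control liver Arntl was at 1.68 and Dbp at -1.23, both called. The hour of the day at which livers were taken is not given in the sources used here.

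Glucocorticoid-responsive genes were split as well, with 5 higher and 3 lower of 24 and a median of 0.29. The share called was 33.3%, beside 19.3% of all genes. Among those higher were the receptor gene Nr3c1 (0.89, adjusted p = 0.0336) and Tfcp2l1 (1.03, adjusted p = 0.0199). Tsc22d3, also known as GILZ and a direct target of the glucocorticoid receptor, was at 14.4, 9.0, 10.7 and 9.21 CPM against 21.6, 22.5, 17.8 and 19.5 CPM (log2 difference -0.91, adjusted p = 0.0126) and kept its call throughout. Fkbp5, another direct target, was at 114, 109, 58.3 and 56.6 CPM against 172, 120, 167 and 174 CPM (log2 difference -0.91, adjusted p = 0.0381), with libraries 3 and 4 lowest. Igfbp1, a binding protein for insulin-like growth factor that rises in fasting and stress, was at 2552, 4425, 7760 and 4465 CPM against 1491, 2616, 1687 and 1332 CPM, higher by 1.43 (adjusted p = 0.0235) with library 1 below library 10. Igfals, which stabilises the same growth factor in plasma, is not a member of this list. It was at 8.58, 10.5, 17.3 and 6.44 CPM against 41.9, 26.7, 32.1 and 33.1 CPM and fell by 1.64 (adjusted p = 0.0118).

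**Figure D4:**
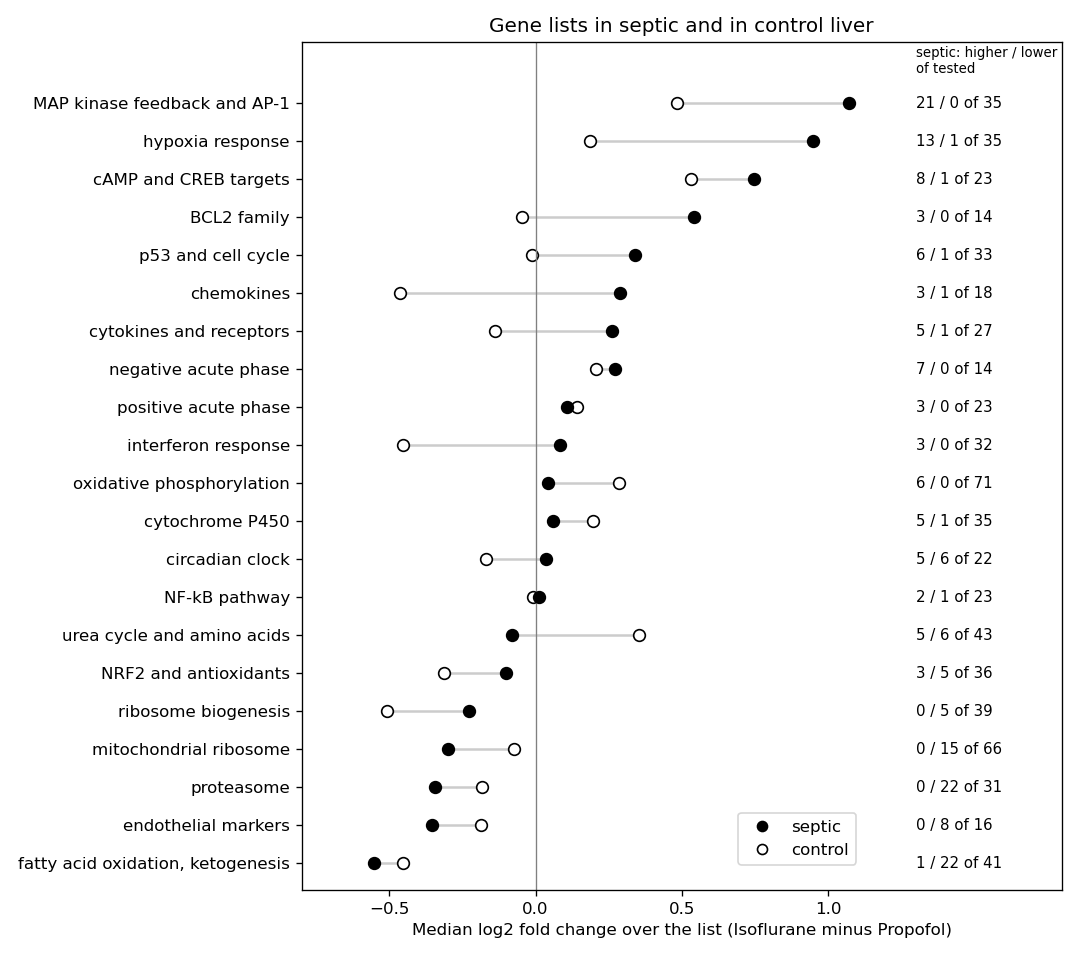
Median log2 fold change of isoflurane against propofol over each of 21 gene lists, in septic liver (filled) and in control liver (open), with the number of genes called higher and lower in septic liver at the right. MAP kinase feedback (1.07) and hypoxia (0.95) have the highest septic medians and fatty acid oxidation (-0.55) the lowest, and the chemokine (0.29 septic, -0.46 control) and interferon (0.08 and -0.45) medians have opposite signs in the 2 settings.

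Subunits of the proteasome and of the mitochondrial ribosome were called lower more often than the 8.66% of all genes. Of 31 proteasome subunits 22 were called lower and none higher with a median of -0.35, and Psma1, a core subunit, was at 89, 77.2, 72.6 and 74.3 CPM against 113, 111, 107 and 121 CPM (log2 difference -0.53, adjusted p = 0.0116). Psmc3 (-0.52) and Psmd6 (-0.52) of the regulatory cap differed by as much. Of 66 proteins of the mitochondrial ribosome 15 were called lower and none higher, with a median of -0.30, and Mrpl49, at 5.17, 4.41, 3.40 and 4.25 CPM against 10.2, 8.83, 11.7 and 12 CPM, differed by -1.31 (adjusted p = 0.00464). Both counts were sensitive to the choice of libraries, with 1 gene of each list called lower without library 9, 11 or 12, 12 proteasome genes without library 2 or 3, and 7, 4 and 8 mitochondrial ribosome genes without library 2, 3 or 4 but 27 and 23 without library 1 or 10. They rose to 30 and 36 with library totals. In control liver 24 of 31 proteasome subunits were called lower and none higher (median -0.183). Of 66 mitochondrial ribosome proteins 22 were called lower and 3 higher there (median -0.075), beside 21.7% of all genes called lower. Ribosome biogenesis (5 of 39 lower, median -0.23) and aminoacyl-tRNA synthetases (4 of 20 lower, median -0.28) also had calls in the lower direction alone (23 and 11 with library totals), beside 8.66% of all genes called lower, and control liver had 35 and 16 called lower. The cytosolic ribosomal proteins (2 of 69 higher, median 0.06, and -0.09 with library totals) had none called lower.

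Subunits of oxidative phosphorylation held few calls in septic liver and many in control liver. Of 71 tested, 6 were called higher and none lower with a median of 0.04. With library totals the counts turned to 0 higher and 2 lower and the median to -0.10, and without library 10 the counts were 5 and 2. In control liver 61 of 71 were called higher under isoflurane with a median of 0.29. Ndufb2 of complex I, Cox7c of complex IV and Atp5e of ATP synthase were the septic calls with the smallest adjusted p. Of the 11 genes whose transcripts the study followed by PCR none was called by edgeR, 2 had an unadjusted p below 0.05, and DESeq2 and limma-voom each called 1. The study's PCR set sepsis against control within each anesthetic, which is a different comparison. The study also measured protein levels and activities of the complexes. Atp6ap1l, among the 11, is not a member of the list of subunits. Ndufs1, the largest subunit of complex I, came nearest at -0.41 (adjusted p = 0.0503), and library 4 was the lowest of the 8 libraries for the list as a whole. The interaction was called for 1 member, Uqcrb (-0.40, adjusted p = 0.0436), which is among the 11 genes. The median interaction over the list was -0.26.

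Calls in amino acid and nitrogen metabolism went both ways. Of 43 genes 5 were higher and 6 lower, a share of 25.6% beside 19.3% of all genes. Within the urea cycle Asl, at 732, 1125, 1602 and 1025 CPM against 405 to 629 CPM, rose by 1.23 (adjusted p = 0.0156) and Otc by 0.46 (adjusted p = 0.0120), while Nags, which makes the cofactor that switches the cycle on, fell by 1.40 (adjusted p = 0.0158). Glul, the glutamine synthetase of hepatocytes around the central vein, was at 177, 162, 126 and 93.6 CPM against 327, 301, 295 and 371 CPM (log2 difference -1.21, adjusted p = 0.0101). Hal, which opens histidine breakdown, was at 33.5, 25.2, 46.4 and 35 CPM against 124, 57.3, 139 and 154 CPM (log2 difference -1.76, adjusted p = 0.0119), with library 10 the lowest of its group. Glul and Hal kept their call throughout. Psat1 and Phgdh of serine synthesis differed by -1.37 and -1.96.

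Insig1 and Insig2 hold SCAP, the escort of the SREBP transcription factors, in the endoplasmic reticulum. Insig1 was at 449, 670, 1081 and 656 CPM against 229, 325, 205 and 222 CPM (log2 difference 1.54, adjusted p = 0.0116), nearly the control difference (1.46). Insig2 was at 35.7, 82.3, 195 and 137 CPM against 23, 26.5, 19 and 15 CPM (log2 difference 2.43, adjusted p = 0.0148). Both are among the 5 called higher of the 39 genes of cholesterol and fatty acid synthesis, of which 2 were lower, and the median of the list was 0.11 (-0.04 with library totals). Together 17.95% of the list was called, beside 19.3% of all genes. Stard4, a carrier of cholesterol, was higher by 0.88. Control liver had 25 of the list called higher and 3 lower.

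Drug metabolism showed scattered calls. Of 35 cytochrome P450 genes 5 were higher and 1 lower, a balance that turned to 3 and 7 with library totals and was 6 and 4 with DESeq2. Of 42 conjugating enzymes 6 were higher and 5 lower (4 and 7 with library totals). The share called was 17.1% for the P450 genes and 26.2% for the conjugating enzymes, beside 19.3% of all genes. Ugt1a2, a glucuronosyltransferase, was at 2.34, 3.84, 6.19 and 5.73 CPM against 0.388, 0.288, 0.209 and 0.536 CPM, a log2 difference of 3.60 (adjusted p = 0.00335) at low counts, while Ugt1a5 differed by -0.68. The transcripts of the Ugt1a locus share their last exons, so reads could be divided between them. Gstp1, a glutathione transferase, was at 5.80, 5.60, 5.32 and 5.79 CPM against 13.5, 11.1, 16.1 and 16.1 CPM (log2 difference -1.34, adjusted p = 0.00220). Hnf4a, the nuclear receptor that maintains hepatocyte identity, was at 344, 260, 295 and 371 CPM against 615, 524, 559 and 591 CPM, a log2 difference of -0.85 ± 0.12 (adjusted p = 0.00714), and it kept its call throughout.

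Secreted plasma proteins were slightly higher under isoflurane. Among 14 negative acute phase proteins, whose synthesis falls in inflammation, 7 were called higher and none lower with a median of 0.27 (4 without library 10, 1 without library 3, and 0 without library 9, 11 or 12 or with library totals). Albumin (Alb) was at 73803, 67554, 73082 and 80867 CPM against 58995, 62475, 53166 and 57041 CPM (log2 difference 0.35, adjusted p = 0.0219) and transthyretin (Ttr) differed by 0.32. The summed level of 14 hepatocyte markers, most of it Alb, moved with these genes, from 119911 to 139973 CPM in Isoflurane-Sepsis and from 99346 to 111429 CPM in Propofol-Sepsis, and its part in the result was not tested. In bulk tissue fewer cells of a type and less RNA per cell cannot be told apart. Control liver had 11 of the 14 negative acute phase proteins called higher and none lower (median 0.205). In septic liver 3 of 23 positive acute phase proteins were called higher and none lower, with a median of 0.11 that became -0.04 with library totals.

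Inflammatory mediators were called about as often as all genes, 22.2% of the chemokines and 22.2% of the cytokines and receptors beside 19.3%. Il1rn, the secreted antagonist of the interleukin 1 receptor, was at 650, 686, 636 and 662 CPM in Isoflurane-Sepsis and 419, 475, 500 and 422 CPM in Propofol-Sepsis (log2 difference 0.54, adjusted p = 0.0101), less apart than in control liver (1.21, interaction adjusted p = 0.0387). Cxcl2, which draws neutrophils, was at 11.3, 15.4, 17.8 and 18.2 CPM against 4.93, 3.98, 4.76 and 3.54 CPM (log2 difference 1.87, adjusted p = 0.00220) and kept its call throughout. Il6, the cytokine that drives the acute phase response, was at 1.41, 1.95, 2.28 and 5.61 CPM against 0.609, 1.01, 0.889 and 0.506 CPM (log2 difference 1.91, adjusted p = 0.0264), a few CPM at most. Both Cxcl2 and Il6 had too few counts in control liver. Cxcl11, an interferon-induced chemokine, went the other way at -1.94 (adjusted p = 0.0158), as did the alarmin Il33 (-0.71). In all 3 of 18 chemokines were called higher and 1 lower, and 5 of 27 cytokines and receptors higher and 1 lower (3 and 2, and 5 and 6, with library totals).

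In the NF-kB pathway Rela, its main activating subunit, differed by 0.64, Tnip2 by 1.05 and the adaptor Myd88 by -0.38, the 3 calls among 23 genes. Of 32 interferon-response genes 3 were called higher (Ifi27, Tap1 and Oasl) and none lower with a median of 0.08, which was -0.06 with library totals, and without library 10 the counts were 1 and 2. Over all 8 libraries the share of these genes called was 9.375%. Control liver had 22 of these genes called lower under isoflurane with a median of -0.45, and 4 members had a called interaction. The 18 neutrophil and monocyte markers tested held no call by edgeR in septic liver, 8 had an unadjusted p below 0.05, DESeq2 called 5 and limma-voom 1. The summed level of the markers in the files was from 1252 to 2060 CPM under isoflurane and from 1165 to 3236 CPM under propofol.

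Endothelial markers were lower in Isoflurane-Sepsis, 8 of 16 called and none higher, with a median of -0.35 (6 called without library 10, 4 without library 2 or 3, 5 without library 4, and 3, 2 and 2 without library 9, 11 or 12). Kdr, the receptor through which VEGF acts on endothelium, was at 5.80, 4.91, 6.44 and 5.26 CPM against 14.3, 9.60, 14.1 and 12.4 CPM (log2 difference -1.16, adjusted p = 0.00610), and Oit3, a marker of liver sinusoids, at 16.9, 14.1, 14.3 and 15.7 CPM against 31.8, 30, 27.3 and 27 CPM (log2 difference -0.93, adjusted p = 0.00220). Both kept their call throughout, while Cdh5 (-0.14), Tie1 (0.06) and Flt1 (-0.05) were not called. In control liver 6 of 15 endothelial markers were called lower and 1 higher (median -0.187). The summed level of 18 endothelial markers in septic liver was from 444 to 481 CPM under isoflurane and from 476 to 560 CPM under propofol. Among markers of macrophages Cd163 (0.58), C1qc (0.43) and Cd74 (0.28) were higher, 3 of 17, a share of 17.65% beside 19.3% of all genes. With library totals 1 marker of this list was called higher and 4 lower, and with DESeq2 4 and 3. Acta2, the actin of smooth muscle and activated stellate cells, was at 13.9, 13.8, 16.3 and 18.1 CPM against 4.10, 5.09, 5.70 and 5.18 CPM, a log2 difference of 1.63 ± 0.14 (adjusted p = 0.00141) that exceeded the one in control liver (interaction 0.96, adjusted p = 0.0183), and Vim was the other of 14 stellate and fibroblast markers called.

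Genes whose difference between the anesthetics changed most clearly with sepsis included Tgm2, a transglutaminase that cross-links proteins. It was at 325, 402, 533 and 420 CPM in Isoflurane-Sepsis and 195, 209, 250 and 185 CPM in Propofol-Sepsis, higher by 1.00 (adjusted p = 0.0101), and in control liver it was lower under isoflurane (-0.53, adjusted p = 0.00125). The interaction was 1.53 ± 0.20 (adjusted p = 0.00351). Cd74, the chaperone of class II antigen presentation, at 113, 122, 125 and 131 CPM against 99, 98.6, 105 and 101 CPM, turned in the same way (0.28 septic, -0.54 control, interaction adjusted p = 0.00740), although its septic difference was not called without library 10 (adjusted p = 0.0510). Klf16, Pced1a and Gpr108 also were higher in septic and lower in control liver. Map1b and RGD1311723 went from higher in control (0.88 and 1.78) to lower in septic liver. Prokr2, a receptor of prokineticins, was at 0.0488, 0.126, 0.304 and 0.295 CPM against 1.55, 1.63, 0.732 and 1.19 CPM, close to the limit of counting.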

How the data were processed

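Liver RNA was sequenced as polyadenylated, strand-specific libraries from pools of rats. The deposited files hold raw counts, the reads the authors assigned to each of 17055 gene symbols in each library, with no scaling. STAR and rn5 are named in the submitters' processing notes, while the sources used here give neither the counting program nor its annotation. Entries for reads outside genes (23.13% to 25.39% of reads in Isoflurane-Sepsis and 22.25% to 23.26% in Propofol-Sepsis) and for ambiguous reads (1.07% to 1.26%) were dropped. Groups came from the labels.

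Isoflurane-Sepsis was compared with Propofol-Sepsis by edgeR 4.0.16 (quasi-likelihood, R 4.3.3) with TMM scaling, genes kept by filterByExpr (minimum count 10, minimum total 15) and Benjamini-Hochberg adjustment over all genes tested. The same test was run on the control libraries, and an interaction over all 16. CPM are after TMM scaling within the 8 libraries compared, log2 CPM used a prior count of 2, an SE is the log2 fold change divided by the root of the F statistic, and single values per library were compared by exact permutation. Fold changes of the control groups rest on a fit of their own. The test was checked on simulated counts. Alternatives were RLE, library totals, DESeq2 1.42.0, limma-voom 3.58.1, other limits on low counts, thinned counts, a single fit of all 16 libraries, a stricter threshold of 0.01 on the adjusted p, and leaving out each library in turn.

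The 41 gene lists and the members were chosen with earlier results of these data known. Named genes are the 10 largest called rises and falls whose mean log2 CPM reaches 1, groups that do not overlap and the same call without library 10, up to 3 called members per list and direction by adjusted p, the genes the study followed by protein or PCR, and the 5 septic calls in each direction with the smallest interaction p. Other list members, and library values of Vegfa, Egln3 and others, were picked after their values were seen. Certain genes picked by these rules are not reported here. P-values measure the spread between pools. Within groups, chi-square per degree of freedom between libraries was 3.47 or more, so none was counted as a repeat of another. Promoter stretches are from RefSeq (GRCr8).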

Additional observations from a re-analysis of the deposited data

Results flagged for a closer look

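In groups of 4 libraries, a value was picked out where its gap to the nearest other library, divided by the range of the group, exceeded Dixon's critical value at 95%, which chance does for about 1 group in 20. Many groups were checked, so some values are picked out by chance alone, and the number found was not set against that. The check covered most of the genes shown by library and 14 gene lists, in both septic groups. It did not cover Slc2a1, Pklr, Fkbp5, Igfals, Asl or Prokr2, whose library values are also given above. The check picked out 6 values, all in Propofol-Sepsis. Library 10 was highest for Dnase2b (3.98 CPM), Per2 (20.8 CPM), Map1b (130 CPM) and Sat1 (226 CPM), library 9 was highest for Ech1 (88.8 CPM), and library 11 was lowest for the mean of the negative acute phase proteins (-0.059 on the log2 scale from the group mean). Without library 10 the differences of Dnase2b, Per2, Map1b and Sat1 were 3.74, -1.35, -1.96 and 2.99 and stayed called.

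For the following genes the difference between isoflurane and propofol differed between septic and control liver by edgeR's interaction test over all 16 libraries, given as the septic minus the control log2 difference. It was above 0 for Hmox1 (3.00), Tgm2 (1.53), Sik1 (1.44), Klf16 (1.34), Acta2 (0.96), Cd74 (0.82), Pced1a (0.78) and Gpr108 (0.62). It was below 0 for Prokr2 (-4.06), Map1b (-3.32), RGD1311723 (-2.95), Crot (-1.54), Cpt1a (-1.46), Tmem164 (-1.14), Rapgef5 (-0.84) and Il1rn (-0.67). Prokr2 had too few counts for a test within control liver. Other named genes with a called interaction, such as Pald1 (-1.74), are not part of this list.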

How the results depend on the processing

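No paired analysis was possible because each library carries its own number and no label ties libraries of different groups. Of the 166 named genes called in septic liver, 48 stayed called in each alternative that tested them, other than the stricter threshold. Without library 10, 10 were lost, 118 were lost with at least 1 library left out and 137 at an adjusted p below 0.01. A gene with too few counts for an alternative was not counted as lost there. None of the 166 changed direction. The genes called, higher and lower numbered 4099, 2085 and 2014 with all 16 libraries in 1 fit and 121, 58 and 63 at an adjusted p below 0.01, and library totals gave 594 higher and 2177 lower. With each library left out in turn they ranged from 249 to 2867 called, from 121 to 1560 higher and from 128 to 1307 lower. RLE, DESeq2, limma-voom, other limits on low counts and thinned counts stayed within 1.5 times, from 1511 (no filter on low counts) to 2885 (DESeq2) called. The interaction gave 847 genes with DESeq2 and between 54 (without Propofol-Sepsis library 12) and 1615 (without Isoflurane-Sepsis library 1) with single libraries left out, and the control comparison between 3715 and 4321. The cause of these shifts was not tested, apart from the smaller number of libraries or stricter threshold that the alternatives set by construction. The reversals in direction were in subunits that were not called. With library totals Atp5j went to -0.0539, Cox7a2l to -0.138, Sdhb to -0.0801 and Sdhd to -0.0181. With single libraries left out Cox7a2l ranged from -0.0108 to 0.0375, and was below 0 without library 2 (-0.00500), 3 or 10 (-0.000277), and Uqcrb from -0.0740 to 0.0173, and was above 0 without library 4 (0.00167) or 12. With 4 pools a group, an adjusted p cannot separate differences near the spread between pools, and genes of a few CPM such as Il6, Nos2 and Prokr2 rest on few counts.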

Other observations

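Gene groups not described above are given with their counts over all 8 libraries. The share called was between 21.2% and 26.1% for the 6 pathway lists of this section, beside 19.3% of all genes. Unfolded protein and integrated stress response genes split evenly, 6 higher and 6 lower of 47. Eif2ak3, the PERK kinase that senses unfolded protein, was at 72.2, 81, 96.4 and 75.3 CPM in Isoflurane-Sepsis and 46.2, 52.3, 47.3 and 44.9 CPM in Propofol-Sepsis (edgeR log2 difference 0.77, adjusted p = 0.00657), and the pro-apoptotic factor Ddit3 differed by 1.06 (adjusted p = 0.0199), against -0.04 in control liver. Among heat shock genes 2 of 27 were higher, Hspb8 and Hsf1, and 4 lower, among them the chaperone Hsph1 and the cochaperone Stip1 (1 and 11 with library totals). Of 33 genes of p53 and the cell cycle 6 were higher, led by Ccng1, Btg2 and Btg1, which restrain growth, and Ccnd1, which promotes it, was the 1 called lower.

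Of 36 NRF2 and antioxidant genes 3 were higher and 5 lower in septic liver (2 and 12 with library totals), while control liver had 4 and 22, and 5 members had a called interaction above 0. Of 25 genes of bile acid synthesis and transport 2 were higher, Slco1a1 and the bile acid feedback receptor Fgfr4, and 4 lower, the bile acid receptor Nr1h4, the exporters Abcc4 and Abcg2 and the repressor Nr0b2 (0 and 6 with library totals). Abcc4 kept its call in all 16 alternatives other than the stricter threshold. Of 23 genes of the insulin and growth factor axis 4 were higher and 2 lower. Markers of erythroid cells (1 of 7 lower, Gypc), lymphocytes (0 of 9 by edgeR, 2 at an unadjusted p below 0.05, 1 by DESeq2) and bile ducts (0 of 7, 1 at an unadjusted p below 0.05, 0 by DESeq2) held few calls, and of the 12 brain markers tested none was called (4 at an unadjusted p below 0.05, 0 by DESeq2), although their median log2 difference was -1.65 with library 10 and -0.27 without it. Of 3 pancreas and gut genes tested none was called, and Prss1, Ins1 and Ins2 were at 0 in all 8 libraries. Of 2 replication histones tested, Hist1h4b was called higher and Hist1h2bh lower.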
